A study of Homo sapiens with 4 samples.

Results

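The mismatch repair genes *MSH6* and *PMS2* and the base excision repair genes *APEX1*, *PARP1*, *PARP2*, *XRCC1*, *POLB* and *LIG3* were followed through their noncoding transcripts in oxaliplatin-resistant and wild-type HepG2 cells. HepG2 is an established human liver cancer line, and oxaliplatin is a platinum drug that forms adducts on DNA. The members are all Ensembl transcripts of the deposited table whose gene in GENCODE release 29 is one of these 8 genes, which gave 43 of the table's 106179 transcripts. Total RNA was sequenced as 2 libraries of HepG2 cells labelled as resistant to oxaliplatin and 2 libraries of wild-type HepG2 cells. The series asked which long noncoding RNAs differ between them. All libraries came from the same medium with serum and antibiotics, and the labels give no treatment protocol. The resistant cells were obtained by screening HepG2 for resistance. The sources used here do not give the drug dose, whether the line is a clone or whether drug was present at harvest. They also do not say if a group's 2 libraries are separate cultures, and each p-value then reflects only how far these libraries vary, which can be technical.

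Mismatch repair removes wrongly paired bases left by DNA replication. MSH6 takes part in recognising the mismatch, and PMS2 in nicking the strand that is then resected. Base excision repair removes single damaged bases: a glycosylase takes out the base, APEX1 cuts the backbone at the empty site, PARP1 and PARP2 sense the break and make poly(ADP-ribose), XRCC1 is the scaffold that gathers the other proteins, POLB fills the gap and LIG3 seals it. Platinum adducts within a strand are mainly repaired by nucleotide excision, while mismatch repair is known in cell lines for its part in the response to cisplatin, and less so in that to oxaliplatin.

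What was counted is not the mRNA of these genes. GENCODE release 29 lists 109 transcripts for the 8 genes, and the 43 in the table are 26 retained introns and 17 processed transcripts. A retained intron is a transcript that keeps intron sequence, and a processed transcript is a spliced one with no reading frame annotated. The other 66, which include the coding transcripts, were not in the table. Many of the 43 consist largely of exon sequence that the mRNAs also hold. Among the 35 with a count in any library, the share of bases outside the exons of coding transcripts ran from 3.54% to 92.6%, with a median of 38.9%. Coding transcripts of any gene on either strand were used, so the 180 bases of ENST00000586407 that overlap *CCT6B* count as inside. Of these 35, the 4 with under 10% of such bases (ENST00000595789, ENST00000590630, ENST00000586119 and ENST00000553555) held 34.6% and 32.6% of the members' counts in resistant cells and 15.4% and 26.5% in wild type. Reads from the shared bases cannot be assigned to the noncoding transcript or to the mRNA by sequence.

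For 6 of the genes, stretches that tell an abundant transcript from the coding ones are shown because the rest of each transcript is also in an mRNA. Each is from the gene's most abundant transcript, except that for *LIG3* the second most abundant is shown, a retained intron. The sequences are read from the GENCODE release 29 transcript, 5′ to 3′, with GRCh38 positions counted from 1. Capitals mark bases outside the exons of coding transcripts, up to the first 90 of the longest such run, and lower case marks adjoining exon bases. *MSH6* and *POLB* are given by their transcripts' identifiers.
PMS2 ENST00000380416, chr7:6002363-6002467, minus strand: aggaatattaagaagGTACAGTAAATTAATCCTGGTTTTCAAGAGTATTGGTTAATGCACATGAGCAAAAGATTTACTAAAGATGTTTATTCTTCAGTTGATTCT
APEX1 ENST00000553555, chr14:20455414-20455518, plus strand: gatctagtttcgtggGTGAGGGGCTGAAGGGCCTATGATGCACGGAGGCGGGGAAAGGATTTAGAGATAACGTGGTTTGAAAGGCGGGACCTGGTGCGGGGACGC
PARP1 ENST00000463968, chr1:226364283-226364372, minus strand: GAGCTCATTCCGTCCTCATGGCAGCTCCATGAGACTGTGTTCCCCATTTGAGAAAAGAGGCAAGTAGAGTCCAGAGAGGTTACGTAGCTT
PARP2 ENST00000530598, chr14:20357135-20357239, plus strand: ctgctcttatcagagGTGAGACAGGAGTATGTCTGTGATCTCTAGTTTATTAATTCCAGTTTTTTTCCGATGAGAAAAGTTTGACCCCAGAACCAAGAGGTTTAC
XRCC1 ENST00000595789, chr19:43552894-43552996, minus strand: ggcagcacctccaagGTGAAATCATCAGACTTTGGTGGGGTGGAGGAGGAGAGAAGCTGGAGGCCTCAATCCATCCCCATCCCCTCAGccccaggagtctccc
LIG3 ENST00000590181, chr17:34989649-34989753, plus strand: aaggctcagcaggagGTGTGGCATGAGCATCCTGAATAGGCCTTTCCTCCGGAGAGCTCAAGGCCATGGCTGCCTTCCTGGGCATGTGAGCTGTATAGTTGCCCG
The *XRCC1* stretch is 73 bases long and is printed whole: it opens with GT after the upstream exon, closes with AG before the downstream exon and makes up 6.36% of the 1147 bases of ENST00000595789. The run in *APEX1* is 149 bases, or 9.30% of the 1603 bases of ENST00000553555. In ENST00000463968 of *PARP1* the run of 302 bases stands at the 5′ end and is 36.4% of the transcript.

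**Figure D1:**
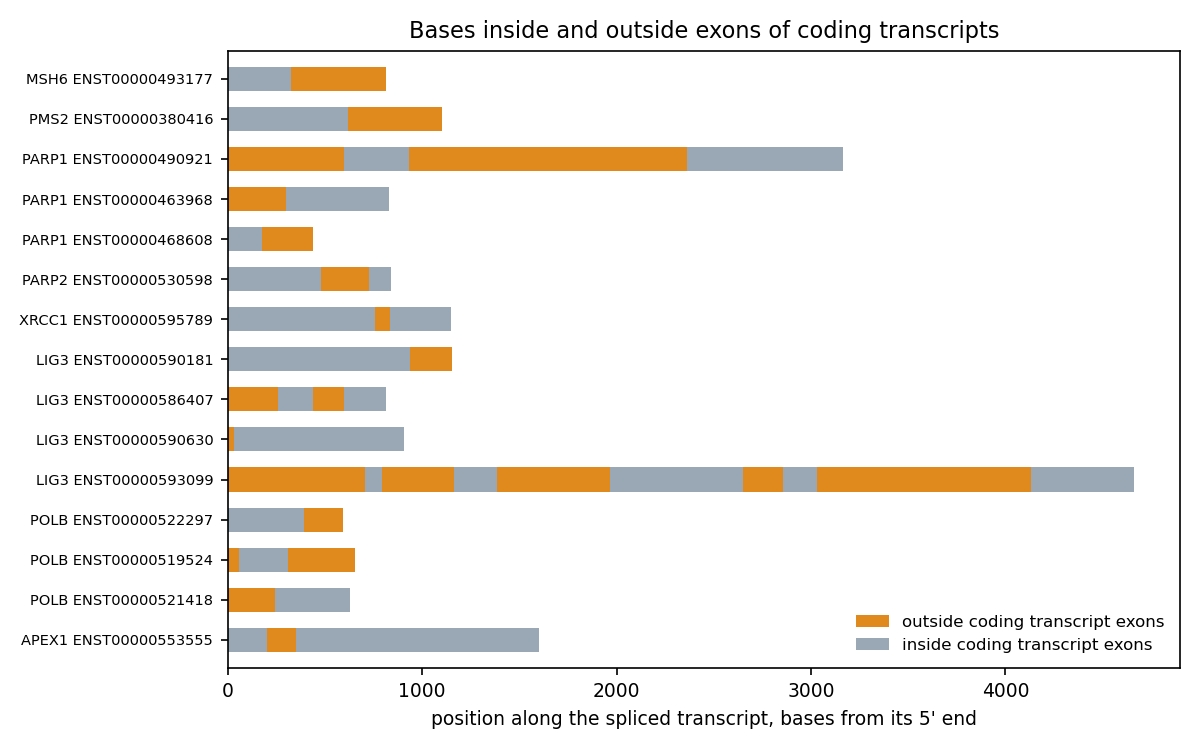
The horizontal axis gives the position in bases along each of the 15 spliced transcripts that met the rule for naming, from the 5′ end. Orange parts lie outside and grey parts inside the exons of coding transcripts of any gene, on either strand, in GENCODE release 29. ENST00000595789 of XRCC1 and ENST00000553555 of APEX1 are nearly all grey, with 73 and 149 orange bases.

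The libraries held between 34898860 and 44063444 counts. The 8 genes together took 6661 and 8375 counts in resistant cells and 6641 and 5600 in wild type, or 153.2 and 190.1 CPM of the unscaled library total in resistant cells and 174.2 and 160.5 CPM in wild type. No 2 libraries were alike within counting noise. Of 20 hepatocyte genes, 14 had a transcript in the table and 9 of these, among them *AFP*, *TTR* and *SERPINA1*, were at 0 in every library, so this table checks the liver identity of the cells only weakly. *CPS1*, a urea cycle enzyme of hepatocytes, had 2308 and 1724 counts in resistant cells and 2118 and 2338 in wild type. After scaling, *CPS1* was lower in resistant cells without overlap (61.4 and 47.1 CPM against 71.6 and 85.9). *FGG* was the only other hepatocyte gene with enough counts to be tested. The groups overlapped for *FGG*, with 8 and 74 counts in resistant cells and 3 and 9 in wild type. Of 14 fibroblast, endothelial and blood cell genes, 11 were in the table, 3 of them (*COL1A2*, *LUM* and *KDR*) at 0 throughout, and the 4 that could be tested summed to 7.19 and 6.23 CPM in resistant cells and 6.02 and 10.9 CPM in wild type. The sum hides opposite directions. Without overlap, *ACTA2* was higher in resistant cells (3.65 and 4.56 CPM against 0 and 1.76) and *PDGFRB* lower (1.17 and 0.301 CPM against 3.58 and 5.88). Over all genes tested, 22.5% were higher and 20.5% lower without overlap.

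Levels of the members are given as CPM, the usual depth-scaled read count, scaled further by the trimmed mean of M-values (TMM) over the genes tested, for the sum of each gene's transcripts. In bulk RNA, fewer cells with a transcript and less of it per cell cannot be told apart. The edgeR quasi-likelihood test was fitted to 13745 genes, and its Benjamini-Hochberg adjusted p was under 0.05 for 0.00% of them (smallest adjusted p 0.323). All 8 members had enough counts to be tested and 0 passed; the smallest adjusted p among them was 0.572, for *PARP1*. At an unadjusted p under 0.05 the edgeR test gave 8.67% of all genes (4.74% higher and 3.93% lower in resistant cells) and 1 of the 8 members, which was lower. A p above the threshold does not show that the groups were alike. The groups did not overlap in 3 members, against 43.0% of all genes tested. limma-voom called 0 members, with 0 of 8 at an unadjusted p under 0.05, against 8.87% of all genes. DESeq2 called 4.61% of all genes and 0 members (smallest adjusted p 0.209), with 1 of 8 at an unadjusted p under 0.05, against 12.3% of all genes.

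**Figure D2:**
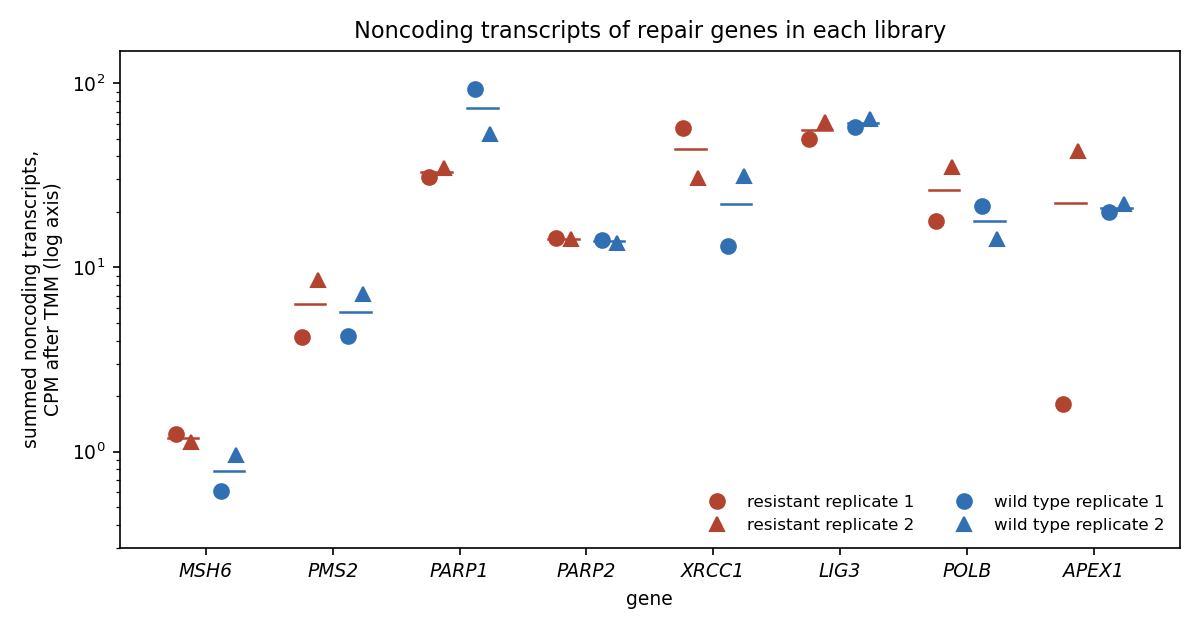
The vertical axis, which is logarithmic, gives the CPM of each gene's summed noncoding transcripts. Circles are replicate 1 and triangles replicate 2, red for resistant and blue for wild type, and short lines are group means. PARP1 is lower in both red points, while the 2 red points of APEX1 lie 23.7-fold apart.

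*PARP1*, the main sensor of strand breaks, had the smallest p of the set. Its 6 processed transcripts (gene at chromosome 1, 226360691 to 226408079, minus strand) summed to 31.1 and 34.6 CPM in resistant cells and 93.2 and 52.7 CPM in wild type. Every resistant value lay under both wild-type values, as in 20.5% of all genes. The log2 fold change was -1.15 ± 0.40 (SE, n = 2 each; 95% confidence interval -2.29 to -0.0097), with an unadjusted p of 0.0488 and an adjusted p of 0.572 in edgeR. The size rested in part on wild-type replicate 1: the log2 fold change was -0.68 without it and -1.50 without wild-type replicate 2. It was -1.07 without resistant replicate 1 and -1.22 without resistant replicate 2.

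Wild-type replicate 1 was the highest library in the main transcript of *PARP1*. ENST00000463968, a processed transcript with 4 exons near the 3′ end of *PARP1* (226361319 to 226364372), had 335 and 543 counts in resistant cells and 1799 and 619 in wild type. It made up 28.7% and 42.9% of the gene's counts in resistant cells and 65.3% and 43.2% in wild type. Its log2 fold change was -1.80 ± 0.71 (SE; adjusted p 0.745 in edgeR), but -0.92 without wild-type replicate 1 and -2.34 without wild-type replicate 2. The other 5 transcripts together had 22.2 and 19.8 CPM in resistant cells and 32.4 and 29.9 CPM in wild type, a smaller gap in which the groups did not overlap either. ENST00000490921, the longest with 3165 bases, had 495 and 330 counts in resistant cells and 472 and 393 in wild type. ENST00000468608 had 194 and 291 in resistant cells and 370 and 294 in wild type. After scaling, the resistant libraries were the lower ones in both. All 6 *PARP1* transcripts had a log2 fold change under 0, and none of the 6 passed the edgeR test of transcripts. The groups overlapped for some of them. All were counted in the same libraries, so their shared sign is not independent support.

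*PARP2*, the related polymerase, was the steadiest member. Its 6 transcripts (chromosome 14, 20343582 to 20357905, plus strand) summed to 14.4 and 14.2 CPM in resistant cells and 14.0 and 13.6 CPM in wild type. The resistant values lay just above the wild-type ones, and the 4 libraries differed little. The log2 fold change was 0.051 ± 0.30 (SE; 95% confidence interval -0.81 to 0.91; adjusted p 0.976 in edgeR), so a doubling lies outside the interval. The retained intron ENST00000530598 held 64.5% and 63.1% of the counts in resistant cells and 63.1% and 66.6% in wild type. Its counts were 350 and 328 in resistant cells and 262 and 247 in wild type, and scaling for library size left a log2 fold change of 0.041 with overlapping groups.

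*XRCC1*, the scaffold gene (chromosome 19, 43543040 to 43580473, minus strand), had the highest log2 fold change of the 8. Its 3 retained introns summed to 57.1 and 30.4 CPM in resistant cells and 13.0 and 31.3 CPM in wild type. The groups overlapped, because resistant replicate 2 was level with wild-type replicate 2. The log2 fold change was 0.98 ± 0.63 (SE; 95% confidence interval -0.83 to 2.79; adjusted p 0.745 in edgeR), and it was 0.46 without resistant replicate 1, 0.48 without wild-type replicate 1 and 1.75 without wild-type replicate 2.

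Within *XRCC1*, ENST00000595789, the transcript with the 73-base intron, had 2071 and 1017 counts in resistant cells and 305 and 734 in wild type. It took 96.6% and 91.4% of the gene's counts in resistant cells, against 79.4% and 86.0% in wild type, with no overlap. Its log2 fold change was 1.16, but 0.60 without resistant replicate 1, 0.63 without wild-type replicate 1 and 2.02 without wild-type replicate 2. The other 2 transcripts together had 1.97 and 2.62 CPM in resistant cells and 2.67 and 4.37 CPM in wild type. For ENST00000594511 the groups overlapped, with 47 and 80 counts in resistant cells and 41 and 55 in wild type and a log2 fold change of 0.027. For ENST00000598422 the resistant libraries were the lower ones, with 27 and 16 counts in resistant cells and 38 and 64 in wild type. Both were picked out after their values were seen. A test of transcript make-up within genes (edgeR's diffSpliceDGE on 7418 genes) called 4.42% of all genes at an adjusted p under 0.05 and 0 of the 6 members with 2 or more tested transcripts. *XRCC1* had the smallest p of these, 0.0210 unadjusted and 0.236 adjusted, where 12.5% of all genes were under 0.05 unadjusted. Exons of ENST00000595789 also overlap the annotated gene *L34079.1* on the same strand (224 bases). On the other strand they overlap *L34079.2* and *L34079.3* (68 and 153 bases). Also on the other strand, ENST00000594511 shares 423 of its 571 bases with *L34079.3*, and ENST00000598422 shares 68 of its 701 with *L34079.2*. Reads from the bases shared on the same strand cannot be told apart by sequence. For the other strand this depends on the strand setting, which is not given.

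**Figure D3:**
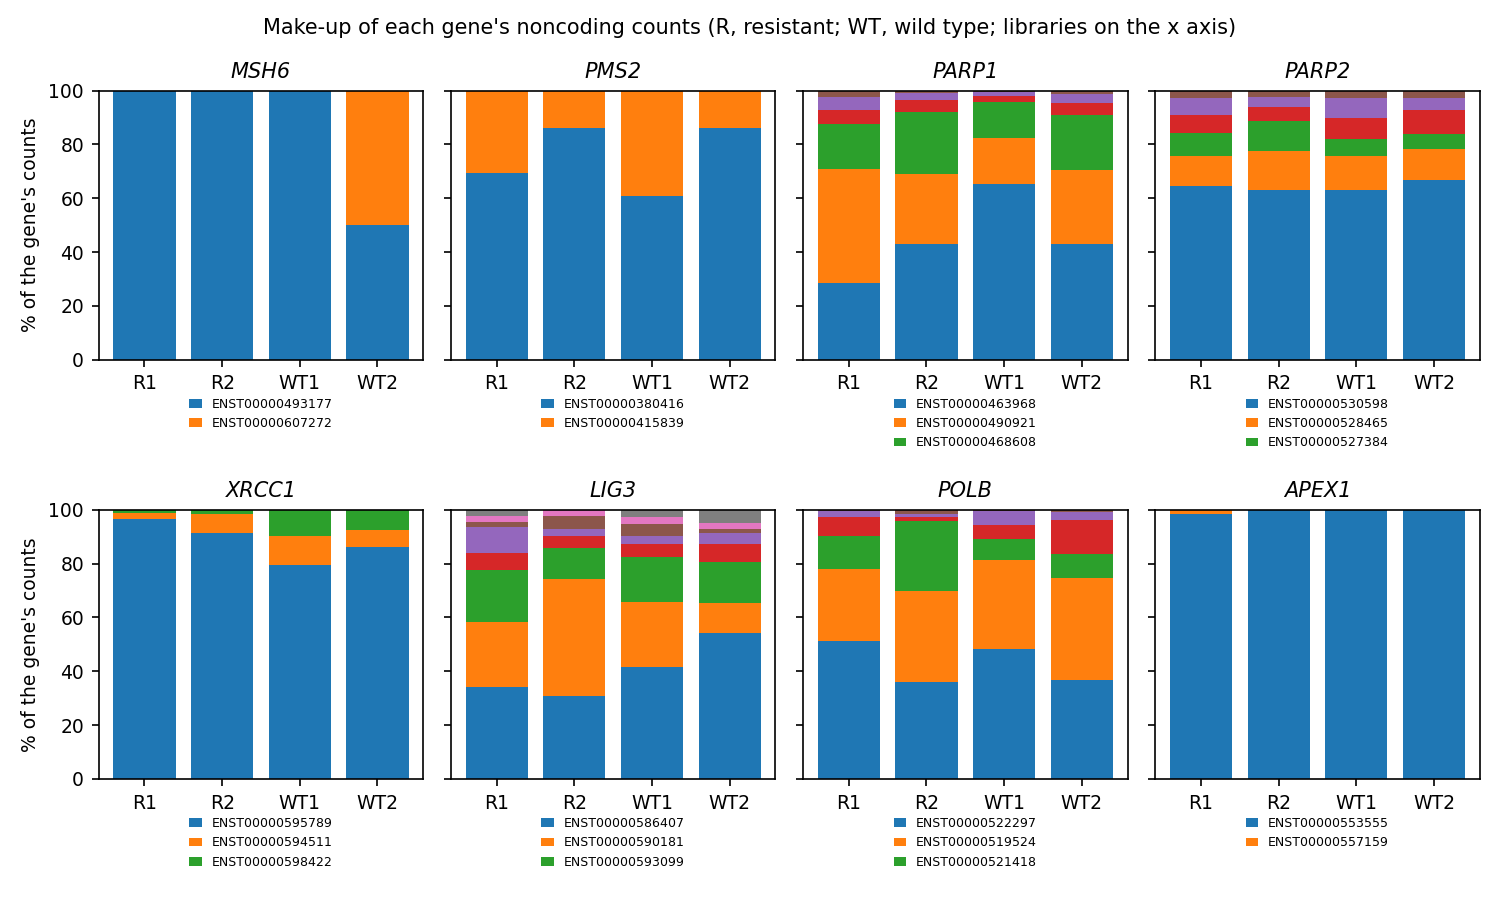
Stacked bars give the percentage of each gene's noncoding counts that each transcript took in the libraries of resistant (R1, R2) and wild-type cells (WT1, WT2). Blue is the transcript of highest mean count, and the next 2 are named under each panel. The blue share of XRCC1 is 96.6% and 91.4% in R1 and R2 and 79.4% and 86.0% in WT1 and WT2, whereas that of PARP2 stays between 63.1% and 66.6%.

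*APEX1*, which encodes the endonuclease that cuts at abasic sites (chromosome 14, 20455191 to 20457772, plus strand), split the resistant pair. Its sum was 1.81 and 42.9 CPM in resistant cells and 19.9 and 22.0 CPM in wild type. The wild-type libraries lay between the 2 resistant ones, which were 23.7-fold apart. A difference that large within the resistant pair was found in 414 genes, or 3.01% of those tested. The retained intron ENST00000553555 carried nearly all of it, with 67 and 1569 counts in resistant cells and 589 and 598 in wild type. Of the other 5 *APEX1* transcripts, 4 had no count in any library, and ENST00000557159, which keeps the same 149-base intron, had 1 and 1 counts in resistant cells and 0 and 0 in wild type, all within the limit of 3 counts that a count of 0 allows. The log2 fold change of the gene was 0.094 ± 1.47 (SE; 95% confidence interval -4.11 to 4.30; adjusted p 0.994 in edgeR), and its sign depended on the library: it was -3.52 without resistant replicate 2 and 1.04 without resistant replicate 1. limma-voom, which works on log values, gave -1.25.

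*POLB*, the gap-filling polymerase (chromosome 8, 42338454 to 42371808, plus strand), had 17.7 and 35.2 CPM in resistant cells and 21.4 and 14.3 CPM in wild type. The groups overlapped, with resistant replicate 2 the highest library. The log2 fold change was 0.57 ± 0.51 (SE; 95% confidence interval -0.88 to 2.01; adjusted p 0.818 in edgeR), and it was -0.0020 without resistant replicate 2. The same library was the highest in each of its 3 main retained introns. ENST00000522297 had 342 and 464 counts in resistant cells and 306 and 143 in wild type, and ENST00000519524 had 179 and 437 in resistant cells and 209 and 147 in wild type. ENST00000521418, at the 3′ end of the gene, had 81 and 332 in resistant cells and 51 and 35 in wild type, without overlap after scaling (log2 fold change 1.91 ± 0.91, SE; adjusted p 0.831 in edgeR). Without resistant replicate 2 its log2 fold change was 0.52.

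*LIG3*, the ligase that works with XRCC1 (chromosome 17, 34980494 to 35009743, plus strand), had the most transcripts, 9, and a nearly level sum. It was at 49.6 and 61.9 CPM in resistant cells and 58.1 and 63.7 CPM in wild type, with overlapping groups. The log2 fold change was -0.13 ± 0.27 (SE; 95% confidence interval -0.91 to 0.66; adjusted p 0.935 in edgeR). Below that sum, single transcripts had log2 fold changes of either sign, and none passed the test. The processed transcript ENST00000586407 had 636 and 696 counts in resistant cells and 712 and 941 in wild type, which was 34.1% and 30.7% of the gene in resistant cells and 41.4% and 54.3% in wild type, with no overlap. The retained intron ENST00000590181 had 452 and 990 counts in resistant cells and 416 and 194 in wild type, with overlap. ENST00000593099, the longest at 4664 bases, had 360 and 261 in resistant cells and 288 and 262 in wild type, and ENST00000590630 had 116 and 97 in resistant cells and 83 and 114 in wild type. In the test of transcript make-up *LIG3* had an unadjusted p of 0.466 (edgeR). A stretch of 180 bases of ENST00000586407 overlaps exons of *CCT6B* on the other strand.

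The mismatch repair genes had few counts. *MSH6*, whose product recognises mismatches (chromosome 2, 47695530 to 47810101, plus strand), had 47 and 41 counts in resistant cells and 18 and 26 in wild type, or 1.25 and 1.12 CPM against 0.609 and 0.955 CPM. The resistant values were the higher ones, as in 22.5% of all genes, and the log2 fold change was 0.60 ± 0.58 (SE; 95% confidence interval -1.05 to 2.25; adjusted p 0.833 in edgeR). It was 0.31 without wild-type replicate 1 and 0.96 without wild-type replicate 2. ENST00000493177 (47783170 to 47784976) accounted for every count outside wild-type replicate 2, with 47 and 41 in resistant cells and 18 and 13 in wild type (log2 fold change 1.13 ± 0.51, SE; adjusted p 0.814 in edgeR). The other 13 counts of wild-type replicate 2 lay on ENST00000607272, a processed transcript that ends upstream of it (47695530 to 47709833).

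*PMS2*, whose product nicks the strand to be repaired (chromosome 7, 5973239 to 6009125, minus strand), had 4.18 and 8.50 CPM in resistant cells and 4.23 and 7.20 CPM in wild type. The spread within each pair was larger than the gap between them, and the log2 fold change was 0.15 ± 0.59 (SE; 95% confidence interval -1.54 to 1.84; adjusted p 0.964 in edgeR). The retained intron ENST00000380416 had 109 and 268 counts in resistant cells and 76 and 169 in wild type. *PMS2* has many pseudogene copies, so how its reads were shared is uncertain. The copy *PMS2CL*, also on chromosome 7, had 12937 and 8822 counts in resistant cells and 4534 and 3931 in wild type, and *PMS2P3* had 677 and 671 in resistant cells and 794 and 1239 in wild type. Sequence shared between these copies and *PMS2* was not measured here.

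**Figure D4:**
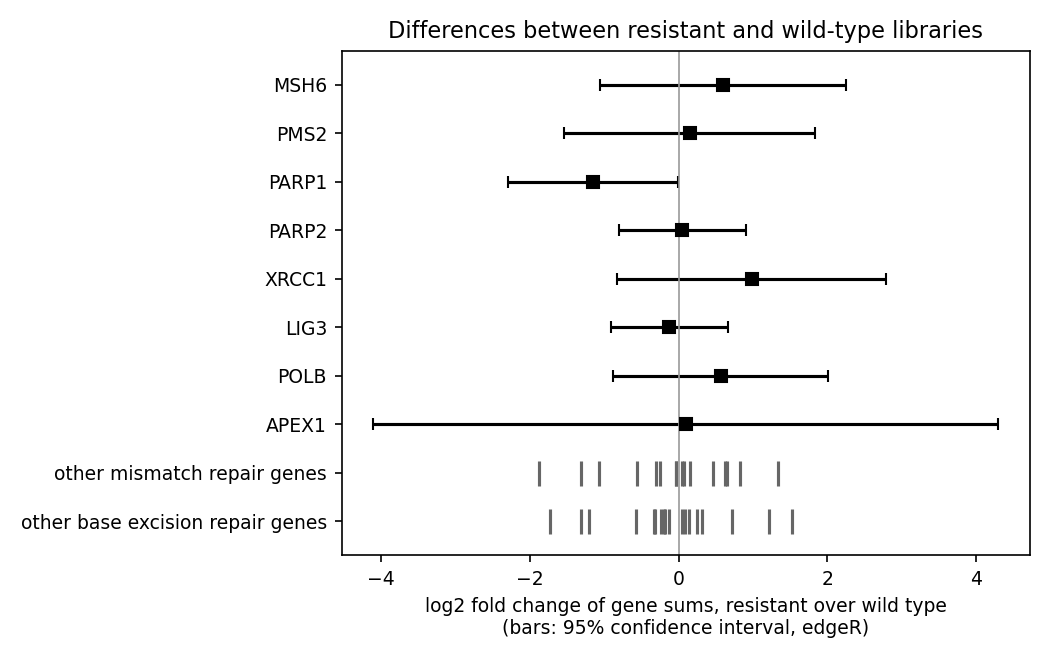
The horizontal axis gives the log2 fold change of gene sums, resistant over wild type. Squares with bars are the 8 genes with their 95% confidence intervals from edgeR, and grey ticks are the single genes of the 2 wider pathway lists. The interval of PARP1 ends at -0.0097, just under 0, and that of APEX1 runs from -4.11 to 4.30.

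Per length, *PARP2*, *APEX1*, *PMS2* and *MSH6* had the lowest means, in the same order, in each group. The scale is CPM per kilobase, each transcript's CPM on the scale of the transcript test divided by its exon length and summed per gene. In resistant cells the means were 47.2 ± 7.47 for *LIG3*, 35.6 ± 16.4 for *POLB*, 33.1 ± 13.0 for *XRCC1*, 32.3 ± 6.12 for *PARP1*, 17.2 ± 0.0967 for *PARP2*, 11.6 ± 15.1 for *APEX1*, 4.96 ± 2.32 for *PMS2* and 1.21 ± 0.0862 for *MSH6* (SD, n = 2). In wild type they were 73.6 ± 28.2 for *PARP1*, 53.7 ± 5.36 for *LIG3*, 23.9 ± 6.82 for *POLB*, 18.0 ± 10.02 for *XRCC1*, 16.2 ± 0.525 for *PARP2*, 10.7 ± 0.773 for *APEX1*, 4.45 ± 1.51 for *PMS2* and 0.638 ± 0.0331 for *MSH6* (SD, n = 2). Taking neighbours in that order in resistant cells, mean ± SD did not overlap between *PARP1* and *PARP2* or between *PMS2* and *MSH6*, and overlapped between all other neighbours. *APEX1* in resistant replicate 1, at 0.931, lay below *MSH6* in that library, at 1.27. In wild type, mean ± SD overlapped between *PARP1* and *LIG3*, between *POLB* and *XRCC1* and between *XRCC1* and *PARP2*, and did not overlap between the other neighbours.

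Counts of the 8 genes were also split by transcript class. The share on retained introns was 71.0% and 75.6% in resistant cells and 46.5% and 55.9% in wild type, while over all protein-coding genes of the table it was 66.2% and 64.7% in resistant cells and 65.5% and 64.7% in wild type. All *PARP1* transcripts here are processed transcripts, with 1169 and 1267 counts in resistant cells and 2757 and 1434 in wild type. All *XRCC1* ones are retained introns, with 2145 and 1113 counts in resistant cells and 384 and 853 in wild type. The share thus also moves with the sums of these genes and does not measure intron retention within a gene. With 2 libraries against 2, an exact permutation test cannot give a p under 0.333, so the difference in this share, in which the groups did not overlap, has no test here that could reach 0.05. Of the 43 transcripts, 32 had enough counts for the edgeR test of 42393 transcripts, which called 0.00% of them and 0 members (smallest adjusted p of a member 0.745). At an unadjusted p under 0.05 it gave 7.74% of all transcripts (4.56% higher and 3.18% lower in resistant cells) and 0 of the 32. limma-voom likewise had 0 of the 32 at an unadjusted p under 0.05, against 7.32% of all transcripts. DESeq2 called 5.33% of all transcripts and 0 members, with 2 of the 32 at an unadjusted p under 0.05, against 11.1% of all. The groups did not overlap in 13 of the 32, with 4 higher and 9 lower in resistant cells, against 40.3% of all transcripts (21.4% higher and 18.9% lower). The 17 tested transcripts outside the rule for named ones had mean counts between 12 and 91.8 and log2 fold changes from -2.06 to 0.81, 5 above and 12 below 0. Of the 11 transcripts not tested, 8 had no count in any library.

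Over genes, the absolute log2 difference between the 2 resistant libraries had a median of 0.61 over the 8 genes and 0.51 over all 13745 genes. Between the 2 wild-type libraries it was 0.58 over the 8 genes and 0.57 over all. These differences are of log2(CPM + 0.1).

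Of 20 further mismatch repair genes, 17 were in the table and 16 were tested, and 0 passed the edgeR test in either direction. Their median log2 fold change was 0.0080 (8 above and 8 below 0), against 0.014 over all genes tested and 0.12 over the 8 members. *MSH3*, which encodes another mismatch-recognition protein, was the 1 of the 16 with an unadjusted edgeR p under 0.05, against 8.67% of all genes. It had 265 and 357 counts in resistant cells and 81 and 106 in wild type. The resistant values were the higher ones without overlap, as in 22.5% of all genes. The log2 fold change of *MSH3* was 1.34 ± 0.45 (SE; edgeR unadjusted p = 0.0450, adjusted p = 0.556). Of 22 further base excision repair genes, 19 were in the table and 18 were tested, and 0 passed. Their median log2 fold change was -0.16 (8 above and 10 below 0). *TDG*, a thymine DNA glycosylase gene, had the highest mean of that list with 132.6 ± 11.4 CPM in resistant cells and 125.5 ± 29.3 CPM in wild type, with an adjusted p of 0.963 in edgeR (SD, n = 2). *PARG*, whose product removes poly(ADP-ribose), had the next with 76.5 ± 18.0 CPM in resistant cells and 32.9 ± 14.4 CPM in wild type, with an adjusted p of 0.615 in edgeR (SD, n = 2).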

How the data were processed

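RNA-seq of 4 HepG2 libraries (2 µg of total RNA each, paired-end 150-base reads, per the labels) was deposited as 1 table. The values the authors deposited, not scaled to library size, were taken as estimated counts, and how they were made is not stated. They are whole numbers per transcript. Taking them as estimated is an assumption, and whether isoforms that share bases trade counts between libraries was not tested. The sources used here give no aligner, counter or strand setting. As genome build, the submitters' processing notes list mm9, a mouse assembly, whereas 103347 of the 106179 identifiers are human Ensembl ones; 84072 matched GENCODE release 29 on GRCh38, which gave names, classes and positions. Counts were summed per gene over named transcripts.

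Genes and transcripts were tested over the whole table with edgeR 4.0.16 in R 4.3.3 (TMM, filterByExpr with a minimum count of 10, quasi-likelihood test, two-sided, Benjamini-Hochberg, threshold 0.05), and transcript make-up with diffSpliceDGE. edgeR gives no SE: each SE was worked back as the absolute log2 fold change over the square root of the F statistic, and each interval from it and the t distribution, so both are approximate. DESeq2 1.42.0 and limma 3.58.1 (voom) were alternatives, as were RLE size factors, other count filters, a replicate block and leaving out each library. A count of 0 allows up to 3 counts, for counting error only. The tests were checked on simulated data with the estimated dispersion (spread between libraries) and with a low one of 0.05. Recovery of changes was required only at the low one. The common dispersion of the data was 0.54 for genes and 0.94 for transcripts, so 0 calls do not show that changes were absent. In the simulated data diffSpliceDGE gave small p-values to unchanged genes too often, so its p-values tend to be too small. All 8 genes are named, and of their transcripts each gene's most abundant and those with an unadjusted p under 0.05 or a mean of at least 100 counts, at most 5 per gene. Outside this rule the text also names ENST00000594511 and ENST00000598422 of *XRCC1*, ENST00000557159 of *APEX1*, ENST00000607272 of *MSH6* and ENST00000586119 of *LIG3*. From each of the 2 wider pathway lists the text names genes past the threshold, else those with an unadjusted p under 0.05, or otherwise the 2 of highest mean. The members, lists and rules were chosen with earlier results of these data known.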

Additional observations from a re-analysis of the deposited data

How the results depend on the processing

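The edgeR count of 0 genes and 0 transcripts past the threshold was the same with RLE size factors, with no filter, with a minimum count of 50, with limma-voom, with a replicate block and in the 4 runs that each left out 1 library. DESeq2 called 633 genes and 2261 transcripts, none of them a member. The test of transcript make-up called 328 genes, 43 with the replicate block and 48 to 247 with 1 library left out (48 without resistant replicate 2, 96 without resistant replicate 1, 203 without wild-type replicate 2); no member passed in any of these. The replicate numbers did not deviate together (r = -0.019 across genes, which are not independent replicates), and the labels do not say that they pair the libraries. Of 228 alternative values of the 8 genes and 15 transcripts, 14 changed sign and 0 passed. The *APEX1* sum was -1.25 in limma-voom and -1.23 with the replicate block, and its ENST00000553555 -1.25 and -1.24. With 1 library left out, log2 fold changes ran from -3.52 to 1.04 for *APEX1*, -3.55 to 1.05 for ENST00000553555, -0.44 to 0.58 for *PMS2*, -0.59 to 1.01 for ENST00000380416, -0.29 to 0.026 for *LIG3*, -0.54 to 0.047 for ENST00000590630, -0.0020 to 0.98 for *POLB* and -0.38 to 0.96 for ENST00000519524. The cause of these changes was not tested. The lone library of such a run is assumed to vary like the other group. Fewer than 50 counts a library limited *MSH6*.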
